A study of Mus musculus with 2 samples.

Results

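Gzma, Gzmb, Gzmc, Gzmk and Gzmm, which encode granzymes, Prf1, which encodes perforin, and Nkg7, which encodes a membrane protein of cytotoxic granules, were measured in single CD45+ cells sorted from adrenal glands. The genes were chosen by name as the granzymes, the pore-forming protein and the granule membrane protein of killer lymphocytes, and all 7 were found by symbol among the 32285 genes of the deposited matrices. The cells came from C57Bl/6 mice of 7 weeks, kept free of specific pathogens, with 1 droplet library from females and 1 from males, and no treatment, allele or transgene is named in the labels. Sex was the only labelled difference, so that every difference between the libraries is a difference between 2 libraries and has no replicate check. The number of mice behind a library was not given in the sources used here. All intervals below are exact 95% intervals that cover counting error only, and no p-value is given.

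Killer lymphocytes store granzymes, which are serine proteases, with perforin in lysosome-like granules. On contact with a target cell the granules are released, perforin opens the target membrane and the granzymes enter and cleave proteins that lead to cell death. Conventional natural killer (NK) cells circulate, depend on the transcription factor Eomes and carry the integrin Itga2, whereas type 1 innate lymphoid cells (ILC1s) reside in tissues and carry Itga1.

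After filtering, 3694 cells of the female library and 2449 of the male library were kept, with a median of 3489.5 and 3008 unique molecular identifiers (UMIs, counted molecules) per cell. The 7 genes gave 0.351% of the UMIs of the female cells and 0.230% of those of the male cells. The libraries shared 2 barcodes. Xist, transcribed from the inactive X chromosome, gave 23396 UMIs in the library labelled female and 6 in the library labelled male, and 4 Y-linked genes gave 7 and 1686 UMIs, as the labels state. Clusters were made without the 7 genes, and 2 of them carried the NK markers. The cluster with more Eomes and Itga2 than Itga1 and Cd160 UMIs (530 against 106 in the female and 368 against 62 in the male library) is called conventional NK cells here, with 322 female and 154 male cells. The cluster with the opposite balance (320 against 1781 and 91 against 903) is called ILC1-like NK cells, with 532 and 213 cells. Of 13 listed conventional NK markers, 12 were at least 2 times higher in the former than in the latter cluster in each library, and of 13 ILC1 markers 11 (female) and 12 (male) were at least 2 times higher in the latter. These lists hold the 4 genes that named the clusters. Cell by cell the split was less sharp, since 24 female and 7 male cells of the conventional cluster held more Itga1 and Cd160 than Eomes and Itga2 UMIs, and 45 and 7 cells of the ILC1-like cluster the reverse. Levels are given in CPM, which is the sum of a gene's UMIs in a class relative to the sum of all UMIs there, on the usual scale of that unit. UMIs were counted at the 3′ ends of transcripts, and levels are compared between cells and not between genes. In sums of this kind, fewer cells that express a gene and less RNA per cell cannot be told apart, for which reason shares of cells are given as well.

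In mm10, the build used for the deposited counts, Gzma lies at chr13:113093825-113100981 and Gzmk at chr13:113171608-113225908, both on the minus strand, while Gzmb (chr14:56258838-56262260) and Gzmc (chr14:56231441-56234656) lie on the minus strand of the granzyme cluster of chromosome 14. Gzmm (chr10:79689020-79695261), Prf1 (chr10:61297833-61304680) and Nkg7 (chr7:43437073-43438249) lie on the plus strand. Gzmk overlaps Esm1 on the opposite strand, and none of the other 6 overlaps another annotated gene. Of the 50-base stretches of the Gzmc transcript, 4.14% also occur in a transcript of Gzmd, Gzme or Gzmg, but none of those within its last 400 bases, where 3′ tags mostly fall, and the transcripts of the other 6 share no such stretch with other granzyme transcripts. The 250 bases before the RefSeq start of 4 members are shown, because Prf1 and Gzma were higher in conventional and Gzmc in ILC1-like NK cells whereas Gzmb was not set apart in this way. They are given 5′ to 3′ on the gene's own strand (RefSeq, GRCm38.p6). The bases after the RefSeq start were found in a transcript for Gzma and Gzmc but not for Gzmb and Prf1. Gzmb as placed above ends at 56262260, and its window begins at 56262335. The Prf1 window ends at 61297835, within the gene as placed above. Capitals mark every match, on either strand, to GTGTGA, the core bound by T-box factors such as Eomes and T-bet, and to TGTGGT, the core bound by Runx factors. No match overlaps another.
Prf1 (chr10:61297586-61297835, plus): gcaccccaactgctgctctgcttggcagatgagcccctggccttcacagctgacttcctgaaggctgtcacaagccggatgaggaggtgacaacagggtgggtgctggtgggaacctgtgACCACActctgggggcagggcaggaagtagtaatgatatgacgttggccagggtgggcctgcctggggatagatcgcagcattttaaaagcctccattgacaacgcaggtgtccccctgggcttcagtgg
Gzma (chr13:113100982-113101231, minus): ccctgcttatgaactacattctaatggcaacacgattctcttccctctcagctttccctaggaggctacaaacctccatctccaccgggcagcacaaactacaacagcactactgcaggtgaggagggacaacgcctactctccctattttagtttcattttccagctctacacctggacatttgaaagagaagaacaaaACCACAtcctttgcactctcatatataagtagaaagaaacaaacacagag
Gzmb (chr14:56262335-56262584, minus): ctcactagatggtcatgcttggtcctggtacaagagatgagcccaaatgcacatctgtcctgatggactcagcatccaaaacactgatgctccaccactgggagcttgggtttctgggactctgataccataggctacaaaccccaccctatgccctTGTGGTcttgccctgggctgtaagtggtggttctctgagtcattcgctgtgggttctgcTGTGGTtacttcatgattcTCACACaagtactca
Gzmc (chr14:56234658-56234907, minus): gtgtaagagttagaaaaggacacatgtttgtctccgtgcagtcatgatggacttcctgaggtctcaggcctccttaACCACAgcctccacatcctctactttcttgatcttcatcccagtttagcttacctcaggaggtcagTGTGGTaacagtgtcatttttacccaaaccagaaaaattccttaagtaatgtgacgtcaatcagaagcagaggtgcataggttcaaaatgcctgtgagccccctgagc
The Gzmb window holds 1 T-box and 2 Runx cores, that of Gzmc 2 Runx cores and no T-box core. Those of Prf1 and Gzma hold 1 Runx core each and no T-box core. Nkg7, which was also higher in conventional cells, is not shown, and its window holds 1 T-box and 1 Runx core. Also not shown are Gzmk, with 2 T-box cores and no Runx core, and Gzmm. The latter has a Runx core in 1 window and a T-box core in another. Of 32851 mouse promoter windows of the same length, 12.3% hold the T-box core, 14.0% the Runx core and 2.05% both, so that matches are common and are given as a description only.

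The members fell into 3 patterns across cell classes. Gzma, Gzmb, Prf1 and Nkg7 were high in both NK subsets, Gzmc lay almost entirely in ILC1-like NK cells, and Gzmk and Gzmm were sparse, with 110 and 70 UMIs over both libraries. Conventional NK cells held 48.6% of the Gzma UMIs of the female and 63.7% of those of the male library, and 69.4% and 69.6% of the Prf1 UMIs. ILC1-like NK cells held 61.1% and 61.4% of the Gzmb UMIs and 94.7% and 96.0% of the Gzmc UMIs. Nkg7 was spread more widely, as T cells held 20.8% and 23.9% of its UMIs. T cells also held 54.5% and 78.2% of the Gzmk UMIs and 46.6% and 41.7% of the Gzmm UMIs.

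**Figure D1:**
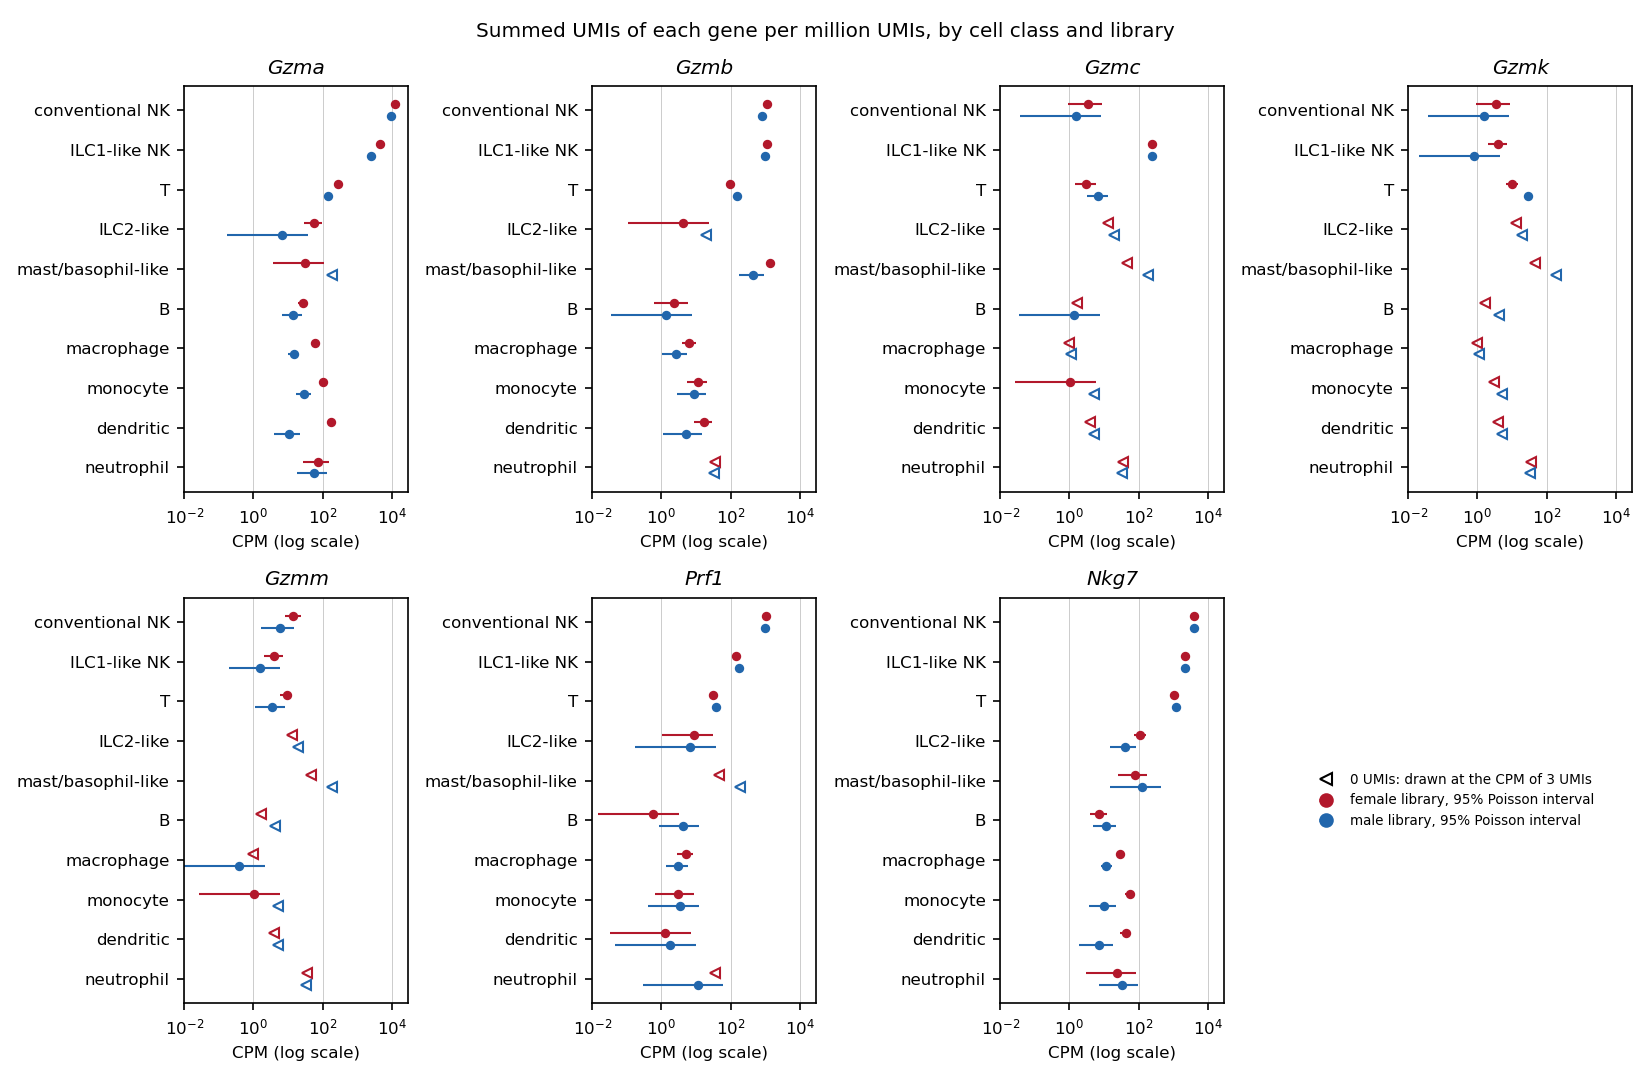
Level of each of the 7 genes (x axis, CPM on a log scale) in each cell class (y axis), in the female (red) and male (blue) library; points are CPM of summed UMIs, bars exact 95% Poisson intervals, and open triangles classes with 0 UMIs, drawn at the CPM that 3 UMIs would give. Gzma reached 12256 and 9423 CPM in conventional NK cells, Gzmc 245 CPM in ILC1-like NK cells of each library, and mast or basophil-like cells held Gzmb UMIs and no Prf1 UMI.

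Conventional NK cells were compared with ILC1-like NK cells within each library. Gzma, a tryptase-like granzyme, stood at 12256 CPM in conventional and 4534 CPM in ILC1-like cells of the female library, and at 9423 and 2585 CPM in the male library. It was thus 2.70-fold (interval 2.64 to 2.77) and 3.65-fold (3.49 to 3.80) higher in conventional cells. Prf1 showed the wider gap of the granule genes that were high in both subsets, at 1071 against 143 CPM in the female and 1024 against 177 CPM in the male library, 7.48-fold (6.68 to 8.40) and 5.78-fold (4.96 to 6.75) higher in conventional cells. Nkg7 was 1.75-fold (1.68 to 1.82) and 1.78-fold (1.68 to 1.87) higher in conventional cells, from 4017 against 2298 CPM and 3933 against 2214 CPM.

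Gzmb and Gzmc did not follow Gzma, Prf1 and Nkg7. Gzmb, which encodes the granzyme that cleaves after aspartate and activates caspases, stood at 1118 CPM in conventional and 1130 CPM in ILC1-like cells of the female library, with an ILC1-like to conventional ratio of 1.01 (0.947 to 1.08). In the male library it stood at 817 and 1007 CPM, with a ratio of 1.23 (1.11 to 1.37). Gzmc, a granzyme of the chromosome 14 cluster, gave 678 UMIs in ILC1-like and 4 in conventional cells of the female library and 310 and 1 UMIs in the male library. Its level was 245 CPM in ILC1-like cells of both libraries and 3.39 and 1.5 CPM in conventional cells. The ratios, 72.2 (28.1 to 266) and 163 (29.1 to 6463), rest on those few UMIs in conventional cells. Without cells with 2 or more CD3 or Trac UMIs they were 94.7 (32.2 to 461) and 44.8 (7.75 to 1799). Gzmm, a granzyme that cleaves after methionine and leucine, gave 17 UMIs in conventional and 11 in ILC1-like female cells, 14.4 and 3.97 CPM, and 4 and 2 UMIs in male cells. Gzmk gave 4 and 11 UMIs in the female and 1 and 1 in the male library and could not be compared from so few UMIs.

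Counted by direction, in the female library 1 member (Gzmc) had a ratio interval wholly above 1 in ILC1-like cells, where 6.35% of all detected genes did, and 4 (Gzma, Gzmm, Prf1 and Nkg7) had one wholly below 1, where 10.3% of all genes did. In the male library 2 members (Gzmb and Gzmc) lay above, against 5.73% of all genes, and 3 (Gzma, Prf1 and Nkg7) below, against 6.51%. These shares are over the 14948 (female) and 13902 (male) genes with any UMI in the NK subsets. Only 5918 and 3797 genes had at least 50 UMIs in a subset, so that the shares are not taken at the depth of the abundant members. The female Gzmm interval included 1 when no gene was held out of the clustering (ratio 0.733, 0.324 to 1.73) and when the subsets were taken cell by cell (0.781, 0.325 to 2.01). Male Gzmb turned to 0.784 (0.696 to 0.883) without cells with 2 or more CD3 or Trac UMIs, and with the mean of each cell's CPM its interval included 1 (1.03, 0.929 to 1.14). At 1.5-fold either way, 4 of the 5 members with at least 50 UMIs in a subset passed in each library (Gzma, Gzmc, Prf1 and Nkg7), where 18.1% of such genes passed in the female and 17% in the male library. Gzmc reached 50 UMIs through ILC1-like cells alone and is no support for that count. The median log2 ratio over those genes was -0.08 and 0.02.

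**Figure D2:**
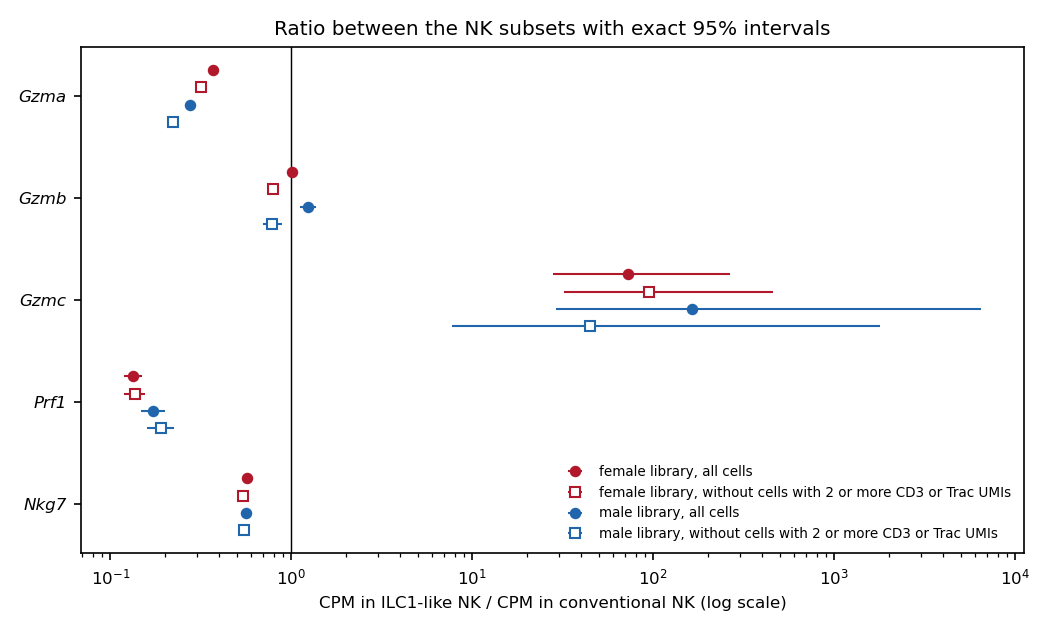
Ratio of the CPM in ILC1-like NK cells to that in conventional NK cells (x axis, log scale) for 5 genes (y axis), in the female (red) and male (blue) library, for all cells (filled circles) and without cells with 2 or more CD3 or Trac UMIs (open squares); bars are exact 95% intervals. Gzma, Prf1 and Nkg7 lie below 1 in every setting shown, Gzmc lies far above 1 with wide intervals, and Gzmb lies at 1.01 and 1.23 with all cells and below 1 (0.790 and 0.784) without those cells.

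For Gzma, Prf1, Nkg7 and Gzmc the share of cells with a transcript gave the same order as the CPM after a draw to equal depth. To make shares comparable, 1000 UMIs were drawn from each cell, which left out 3 and 2 conventional and 2 and 1 ILC1-like cells. After the draw 95.6% of the female and 94.1% of the male conventional cells held Gzma, against 52.6% and 35.4% of the ILC1-like cells. In B cells, which should lack it, the share was 2.40% and 2.37%. Prf1 was found in 60.8% and 50% of conventional and 12.1% and 14.6% of ILC1-like cells, and in 1 of 499 and 1 of 253 B cells. The shares for Gzmb were 48.6% and 44.7% in conventional and 36.2% and 31.6% in ILC1-like cells. Fewer ILC1-like than conventional cells thus held Gzmb after the draw, whereas the CPM was not lower, so no order is read from its share. Nkg7 was found in 97.2% and 93.4% of conventional and in 87.5% and 85.4% of ILC1-like cells. Gzmc was found in 7.55% and 9.43% of ILC1-like cells and in 0 of 319 and 0 of 152 conventional cells, which by the limit of 3 cells allows shares of up to 0.940% and 1.97% of cells with a UMI in the draw. Without the draw 3 and 1 conventional cells held a Gzmc UMI. Without the draw, Gzma was found in 98.8% and 98.7% of conventional and 67.1% and 46.0% of ILC1-like cells, and the order for Nkg7 turned in the male library (98.7% and 99.5%). The median depths were 3374.5 and 4087 UMIs in conventional, 4723 and 5489 in ILC1-like and 2206 and 1761.5 in B cells.

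Within each subset the genes varied from cell to cell. The median conventional cell held 14 (female) and 8.5 (male) Gzma UMIs per 1000, with 2 and 1 at the 10th and 25 and 21 at the 90th percentile. The median ILC1-like cell held 1 and 0, and the 90th percentile was 13 and 8.9. A part of the ILC1-like cells therefore reached the range of conventional cells, as 16.0% and 9.43% of them held 10 or more Gzma UMIs per 1000, against 66.8% and 49.3% of conventional cells. Gzmb had a long tail in ILC1-like cells, where the highest single cell held 275 UMIs in the female and 150 in the male library and the 5 highest cells held 17.8% and 27.3% of the UMIs. Without the 5 cells of each subset with the most member UMIs, the ILC1-like to conventional ratio of Gzmb was 0.911 (0.851 to 0.976) in the female and 1.13 (1.01 to 1.27) in the male library. Gzmc was more concentrated still, as the 5 highest ILC1-like cells held 39.5% and 56.8% of its UMIs.

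**Figure D3:**
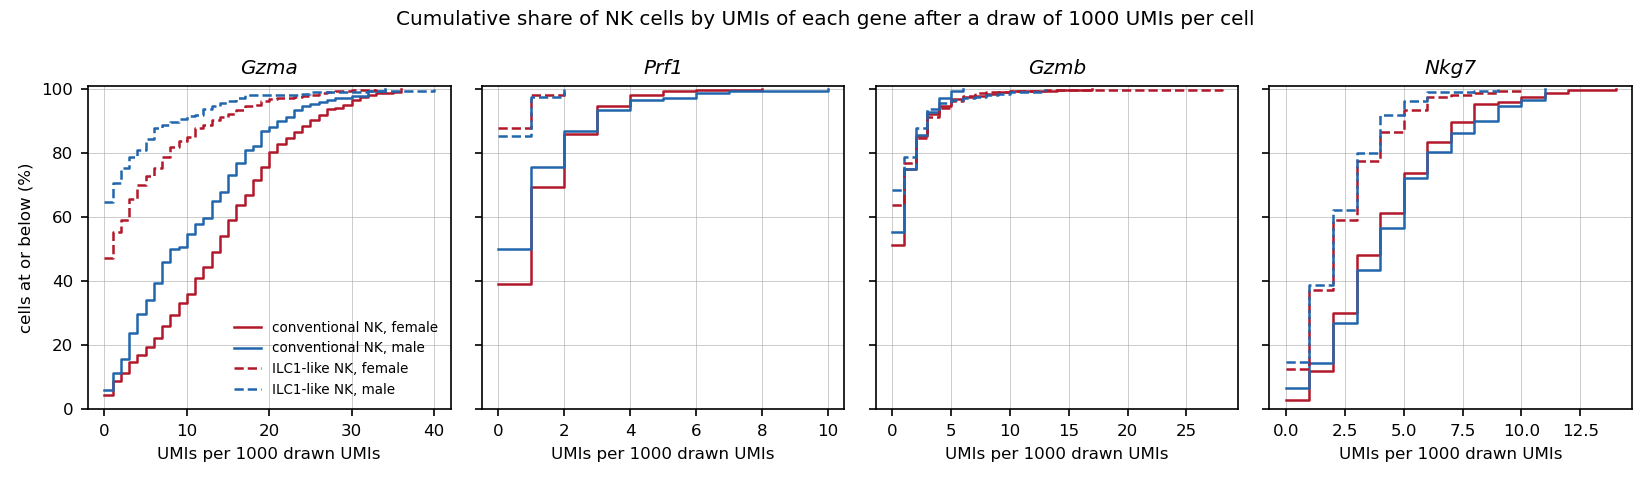
Cumulative share of cells (y axis, %) with at most the given number of UMIs of Gzma, Prf1, Gzmb and Nkg7 after a draw of 1000 UMIs per cell (x axis, a range of its own in each panel), for conventional (solid) and ILC1-like (dashed) NK cells of the female (red) and male (blue) library. The Gzma curves are the furthest apart, with medians of 14 and 8.5 in conventional and 1 and 0 in ILC1-like cells, and the Gzmb curves lie close together.

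Within cells some pairs of granule genes tended to be found together. Among ILC1-like cells with a Gzmb UMI after the draw, 80.2% (female) and 64.2% (male) also held Gzma, against 37.0% and 22.1% of those without Gzmb. The same cells held Prf1 in 15.1% and 19.4%, against 10.4% and 12.4%. Of the 40 female and 20 male ILC1-like cells with Gzmc, 75.0% and 60.0% held Gzmb, against 33.1% and 28.6% of those without it. In conventional cells Prf1 was found in 73.5% and 63.2% of cells with Gzmb and in 48.8% and 39.3% of those without. These shares come from sparse counts in cells of the same library and are given as a description.

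Part of the ILC1-like cells carried transcripts of the CD3 complex, which T cells use for signalling. In 172 of 532 female and 68 of 213 male ILC1-like cells, 2 or more UMIs of Cd3d, Cd3e, Cd3g or Trac were counted, against 15 of 322 and 8 of 154 conventional cells. Cd3g was found in 95.9% and 98.5% of these ILC1-like cells but Cd3e in 22.7% and 25.0% and Trac in 28.5% and 20.6%, whereas Cd8 T cells held Cd3e in 94.8% and 91.4% and Trac in 78.3% and 75.0%. Trdc, of the gamma delta receptor, was found in 26.2% and 32.4% of these ILC1-like cells and in 21.7% and 15.9% of the others. Tcrg-C2 was found in 14.0% and 17.6% of these cells against 0.833% and 2.07% of the others, and Cd8a in 10.5% and 4.41% against 0% and 0.690%. Tcrg-C4 went the other way, at 33.7% and 29.4% of these cells against 36.1% and 44.8% of the others. Trbc1 had no common direction, at 82.6% and 77.9% against 78.9% and 82.8%. Trbc2 was found in 70.3% and 72.1% of these cells against 50% and 57.9% of the others, and Tcrg-C1 in 11.6% and 19.1% against 7.78% and 8.28%. Of the NK receptor genes, Klrb1c was found in 94.2% and 94.1% against 96.4% and 93.8%. Ncr1 was found in 86.6% and 83.8% of these cells against 95.6% and 97.9% of the others. Gzmb stood at 1673 CPM in the ILC1-like cells with CD3 or Trac UMIs and 860 CPM in the others of the female library, and at 1700 and 677 CPM in the male library. It was 1.94-fold (1.81 to 2.09) and 2.51-fold (2.25 to 2.81) higher in the cells with these UMIs. Gzma was 1.40-fold (1.35 to 1.45) and 1.56-fold (1.46 to 1.67) and Nkg7 1.14-fold (1.08 to 1.2) and 1.06-fold (0.983 to 1.15) higher in them. Prf1 was not higher in them, at 137 against 146 CPM (ratio 0.942, 0.757 to 1.17) and 130 against 200 CPM (ratio 0.651, 0.469 to 0.890). Gzmc differed between the libraries in this respect, at 217 against 259 CPM in female cells and 608 against 72.4 CPM in male cells, an 8.40-fold (6.33 to 11.3) excess in the male library. When cells with these UMIs were left out of both subsets, a setting chosen after the data were seen, the ILC1-like to conventional ratio of Gzmb fell to 0.790 (0.732 to 0.852) and 0.784 (0.696 to 0.883), so that in the male library the direction turned, and in the female library a ratio close to 1 fell below it. The part of T cells in this was not tested.

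Female and male cells were then compared class by class. In conventional NK cells no member with at least 50 UMIs differed by more than 1.5-fold, where 4.94% of all such genes did. Gzmb and Gzma were 1.37-fold (1.24 to 1.52) and 1.30-fold (1.26 to 1.34) higher in the female library over all conventional cells, with other ratios in each maturation gate, while Prf1 (1.05, 0.951 to 1.15) and Nkg7 (1.02, 0.974 to 1.07) were close to equal. In ILC1-like NK cells 1 of 5 members passed 1.5-fold, where 6.83% of genes did. That member was Gzma, at 4534 CPM in the female and 2585 CPM in the male library, 1.75-fold (1.69 to 1.82), and it was found in 52.6% and 35.4% of cells after the draw. The median log2 ratio of all genes in this comparison was -0.10, so that Gzma lies against the general shift. Gzmb (1.12, 1.05 to 1.2), Nkg7 (1.04, 0.993 to 1.09), Gzmc (0.998, 0.871 to 1.15) and Prf1 (0.807, 0.683 to 0.955) were within 1.5-fold. Without the cells with CD3 or Trac UMIs the female to male ratio of Gzmc was 3.57 (2.74 to 4.73), and that of Gzma was 1.83 (1.74 to 1.92). The Gzmc UMIs were concentrated in few cells, as given above.

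In conventional NK cells the granule genes differed by maturation gate. Mouse NK cells pass from a Cd27 stage to a stage with Itgam, which encodes CD11b. The 120 female and 52 male cells with Itgam but no Cd27 UMI were compared with the 34 and 31 cells with Cd27 but no Itgam UMI. Gzma stood at 14698 against 5121 CPM in the female and 13805 against 5704 CPM in the male library, 2.87-fold (2.67 to 3.09) and 2.42-fold (2.25 to 2.61) higher with Itgam. Gzmb stood at 1207 against 191 CPM and 1461 against 623 CPM, 6.31-fold (4.36 to 9.44) and 2.35-fold (1.86 to 2.97) higher. Prf1 was 2.22-fold (1.76 to 2.84) and 1.74-fold (1.41 to 2.14) higher and Nkg7 1.21-fold (1.10 to 1.34) and 1.34-fold (1.2 to 1.49). Gzmm gave 0 UMIs in the Itgam gate and 6 (female) and 2 (male) UMIs in the Cd27 gate, each time in 1 cell. Between the libraries, Gzmb in the Cd27 gate was 3.26-fold (2.15 to 5.07) higher in male cells, from 30 female and 100 male UMIs, and in the Itgam gate 1.21-fold (1.05 to 1.40) higher in male cells. The female to male ratio of Gzma was 1.06 (1.02 to 1.11) in the Itgam gate and 0.898 (0.816 to 0.988) in the Cd27 gate. The excess of Gzmb in the female library over all conventional cells was thus turned in the Itgam gate and the Cd27 gate. That of Gzma was turned in the Cd27 gate and small in the Itgam gate. The excess of each gene was kept in the cells with neither transcript. There Gzmb stood at 1398 CPM in the female and 529 CPM in the male library and Gzma at 12734 and 9236 CPM. In the 21 female and 16 male cells with both transcripts, the 7 genes gave a larger share of UMIs in the female library. Levels of single genes in those cells are not given. The gates rest on sparse counts, since 147 female and 55 male cells held neither transcript, and the median depths of the Itgam and Cd27 gates were 3374.5 and 3523 UMIs in the female and 3740.5 and 4645 in the male library.

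In T cells (687 female and 375 male) Gzma, Gzmb, Nkg7 and Prf1 lay below their levels in ILC1-like NK cells. Gzma was 15.8-fold (14.7 to 16.9) and 17.3-fold (15.1 to 20.0) higher in ILC1-like NK cells than in T cells, Gzmb 11.4-fold (10.1 to 12.9) and 6.63-fold (5.74 to 7.69) and Nkg7 2.12-fold (2.04 to 2.22) and 1.78-fold (1.68 to 1.89). For Prf1 it was 4.73-fold (3.75 to 6.02) and 4.65-fold (3.45 to 6.37). Gzmk went the other way, at 10.2 CPM in T cells against 3.97 CPM in ILC1-like cells of the female and 29.8 against 0.791 CPM in the male library, and so did Gzmm in the female library, at 9.18 against 3.97 CPM. Nkg7 was found in 52.9% and 53.7% of T cells after the draw, Gzmb in 5.17% and 6.58% and Gzma in 7.39% and 2.47%. Of these, Nkg7 alone was found in most T cells. The male Gzma share was close to that of male B cells given above. Background shares of Nkg7 and Gzmb are not given.

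Within T cells, Cd8 cells with experience-type genes held 506 of 845 Gzma UMIs in the female and 196 of 215 in the male library, and 23 of 30 and 41 of 43 Gzmk UMIs. They held 130 of 291 and 131 of 219 Gzmb UMIs. Cells with a Cd8a or Cd8b1 UMI and no Cd4 UMI were divided by naive-type genes (Ccr7, Lef1, Dapl1 and Igfbp4 among them) against experience-type genes (Ccl5, Cxcr3, Id2, S100a4 and Itgb1) into 134 and 75 female and 61 and 55 male cells. Gzma stood at 1288 CPM in experienced-type and 30.7 CPM in naive-type female cells, and at 719 and 8.0 CPM in male cells. The 5 highest cells held 74.9% and 94.4% of the experienced-type Gzma UMIs, however, and only 21 of 75 and 9 of 55 cells held any. Gzmb gave 130 UMIs against 1 in the female and 131 against 0 in the male library. Set against a floor of 3 UMIs in naive-type cells, its excess in male experienced-type cells was at least 40.1-fold, and the exact interval of the ratio starts at 32.1.

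Gzmk, a tryptase-like granzyme of memory-type T cells, was confined within the Cd8 gates to experienced-type cells, with 23 and 41 UMIs in 8 and 12 cells, and gave 0 UMIs in naive-type cells of either library. Its level was 58.6 CPM in female and 150 CPM in male experienced-type cells. Prf1 was 2.72-fold (1.47 to 5.16) and 4.19-fold (1.82 to 11.3) higher in experienced-type cells and Nkg7 2.87-fold (2.53 to 3.25) and 4.02-fold (3.34 to 4.88). Nkg7 was also present in naive-type Cd8 cells, at 634 and 548 CPM, in 40.3% and 41.0% of them after the draw. Naive-type Cd4 cells (38 and 15) gave 0 Nkg7 UMIs in each library, against 227 and 115 UMIs in the 40 and 26 experienced-type Cd4 cells. Ccl5, an experience-type gene of these gates, was among the genes most like Nkg7 across classes (r 0.958). The Nkg7 contrasts are therefore not independent of the gates.

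**Figure D4:**
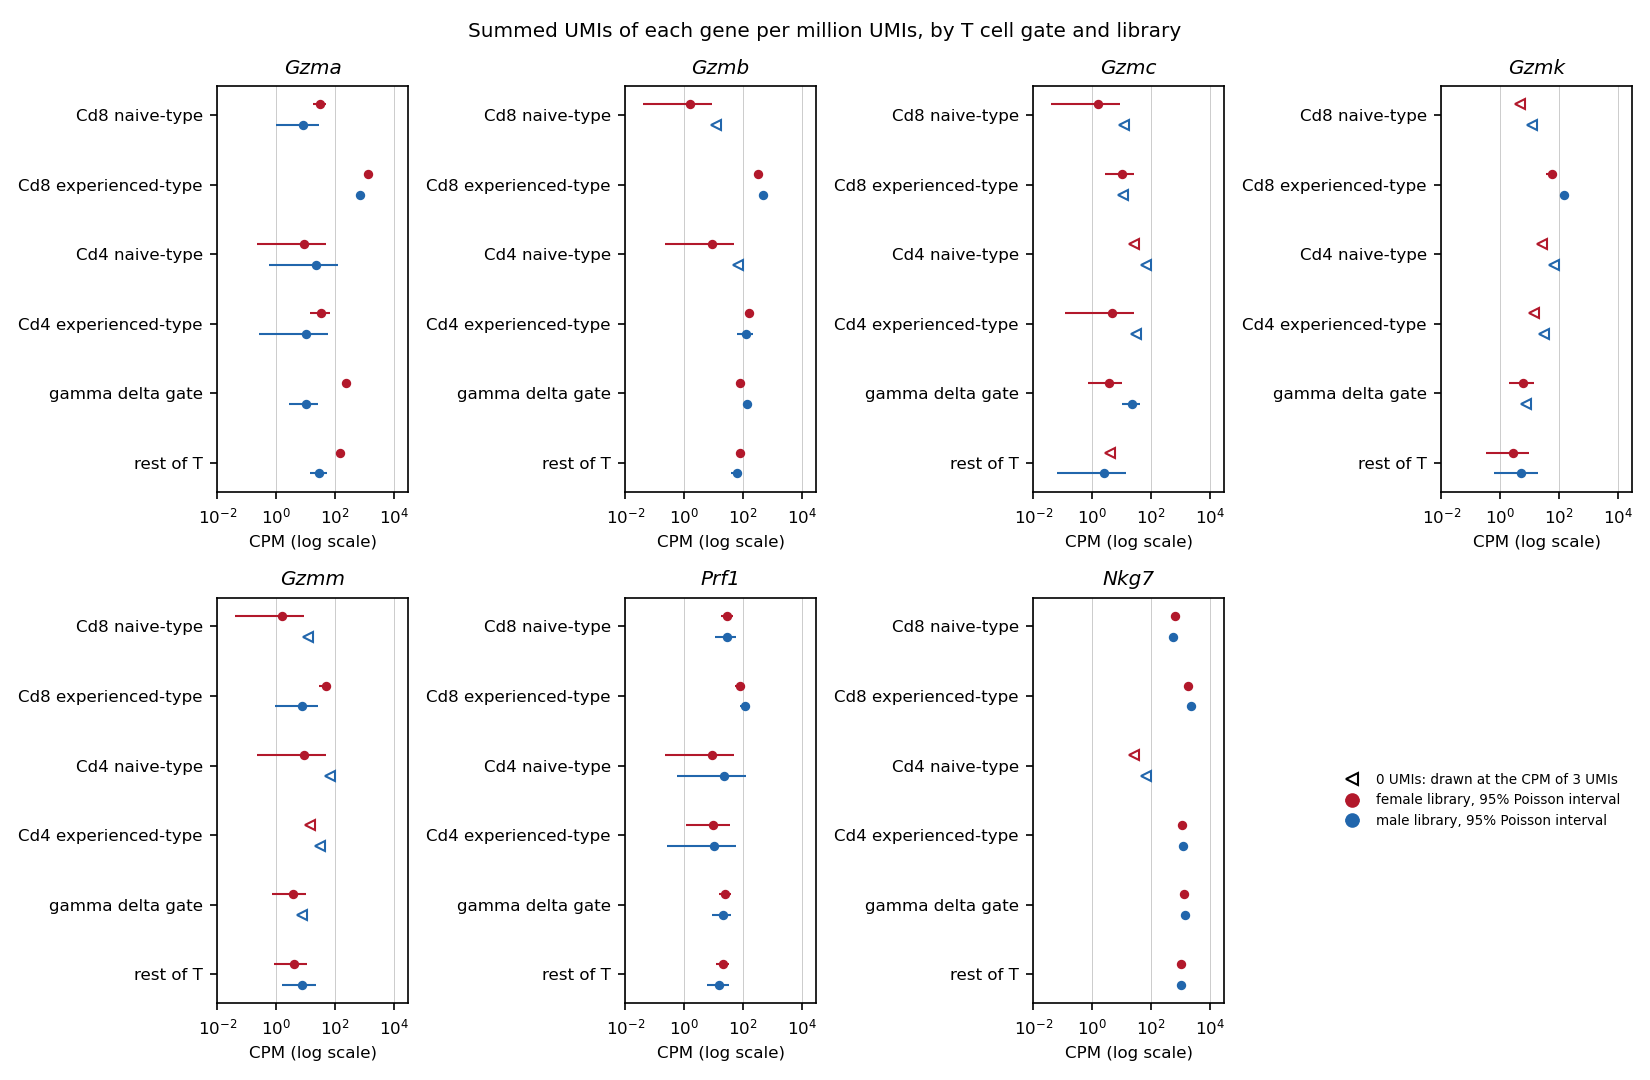
Level of each of the 7 genes (x axis, CPM on a log scale) by T cell gate (y axis) in the female (red) and male (blue) library; points are CPM of summed UMIs, bars exact 95% Poisson intervals, and open triangles gates with 0 UMIs, drawn at the CPM of 3 UMIs. Experienced-type Cd8 cells held the most Gzma (1288 and 719 CPM), and naive-type Cd4 cells held no Nkg7 UMI in either library.

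T cells that held gamma delta receptor transcripts (Trdc or Tcrg-C genes) without Cd4 or Cd8 numbered 169 and 91. Trac was found in 81.7% and 78.0% of them and Trdc in 16.0% and 19.8%, so that the gate is not taken as gamma delta T cells alone. Their Nkg7 level was 1274 and 1391 CPM and it was found in 74.3% and 76.4% of cells after the draw. Gzma differed between the libraries in this gate, with 201 UMIs in female and 4 in male cells, but the 5 highest female cells held 75.6% of them. Gzmc reached 22.8 CPM in male cells, from 9 UMIs in 5 cells. Over all T cells, 2 of 4 members differed by more than 1.5-fold between the libraries, Gzma being 1.93-fold (1.66 to 2.25) higher in the female and Gzmb 1.53-fold (1.28 to 1.83) higher in the male library, where 5.02% of genes passed. For Gzmb the ratio was within 1.5-fold in several other settings, 1 of them with doublets kept, where its interval included 1 (female to male 0.903, 0.765 to 1.07). T cluster cells in which 2 or more of 9 NK genes were detected numbered 189 and 81. Gzma stood at 588 CPM in those of the female and 178 CPM in those of the male library. Among the other T cells Gzma was equal in the libraries, at 138 and 137 CPM (ratio 1.0, 0.816 to 1.24), and Gzmb was 4.17-fold (3.14 to 5.58) higher in the male library, at 155 against 37.2 CPM. In the cells with NK transcripts Gzmb stood the other way, at 223 CPM in the female and 144 CPM in the male library. The 5 highest of the T cluster cells with NK transcripts held 66.9% and 94.6% of their Gzma UMIs.

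Innate lymphoid cells with type 2 markers (81 and 53) held few UMIs of any member. Gzma gave 13 UMIs in female and 1 in male cells, Nkg7 26 and 6, Prf1 2 and 1, and Gzmb 1 and 0. Gzmc, Gzmk and Gzmm gave 0 UMIs, where a floor of 3 UMIs stands for 13 CPM in the female and 19.8 CPM in the male cells. No cluster was named as type 3 innate lymphoid cells.

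Mast or basophil-like cells, a gate of 23 female and 6 male cells, held Gzmb UMIs and no Prf1 UMI. The gate took cells of the innate lymphoid cluster with 3 or more UMIs of mast cell and basophil markers, and was chosen once the clustering was known. Gzmb gave 89 UMIs in 7 female cells and 7 UMIs in 2 male cells, 1380 CPM (1108 to 1698) and 440 CPM (177 to 906). Of the female UMIs 47 and 23 lay in a pair of cells. Prf1 gave 0 UMIs in either library, where a floor of 3 UMIs stands for 46.5 CPM in the female and 188 CPM in the male gate. The latter lies above the 177 CPM of male ILC1-like cells, so that a Prf1 level like theirs was not detectable in the male gate. The 7 female cells with Gzmb held no Gzma UMI. Tpsb2, a mast cell tryptase, was found in 2 of the 7 female cells with Gzmb and in 13 of the 16 without, and in 0 of 2 and 4 of 4 male cells. Mcpt8, a basophil protease, was found in 4 of the 7 and 3 of the 16 female cells and in 1 of 2 and 0 of 4 male cells. Cpa3, a protease gene of mast cells and basophils, gave 31 to 96 UMIs in each of the 7 female cells with Gzmb, and 6 of them held Cma1, a mast cell chymase. The cells with Gzmb were deeper, with a median of 5182 against 1345.5 UMIs in the female and 3499 against 1807.5 UMIs in the male library, and the part of depth in this was not tested.

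B and myeloid cells served as background. Over 1776 female and 1323 male cells, Gzma stood at 72.2 and 16.5 CPM, Nkg7 at 29.0 and 11.3, Gzmb at 7.10 and 3.48 and Prf1 at 3.11 and 3.26 CPM, far below both NK subsets. Gzmk gave 0 UMIs and Gzmc and Gzmm 1 UMI each per library. In the female library 6 of these cells held 3 or more members, and without them Gzma stood at 28.0 CPM. The Gzma share was 3.62% in female and 2.17% in male B and myeloid cells after the draw, at median depths of 2948.5 and 2567 UMIs. Innate lymphoid cells stood at 56.4 and 6.60 CPM for Gzma, at a share of 7.79% and 1.96% after the draw, so that the female level lay below that of the background cells only with the 6 cells included. Their Nkg7 levels, 113 and 39.6 CPM, lay above the background. Proliferating cells (36 and 13), a cluster of mixed lineage, held Gzma at 2280 CPM in the female and 44.8 CPM in the male library.

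Of 48 further genes listed for the cytotoxic pathway, 10 had fewer than 50 UMIs in each NK subset of each library. Of the rest, 3 were at least 1.5-fold higher in ILC1-like cells in both libraries with both intervals excluding 1, 9 were lower by the same rule and 26 neither, where 3.85% of all 5921 such genes were higher and 4.07% lower. Tnfsf10, Serpinb9b and Prdm1 reached 50 UMIs through the subset in which they were high alone and Eomes was used to name the subsets, so that these counts are a description. Bach2, a transcription factor, counts among the 26 because its male interval included 1, at 1.91-fold (1.31 to 2.80) and 2.01-fold (0.997 to 4.05) higher in conventional cells. Among 8 regulators, Zeb2, Prdm1 and Eomes, which was itself used to name the subsets, were lower in ILC1-like cells. Zeb2, a transcription factor of late NK cell maturation that was also on the conventional NK marker list, was 12.3-fold (10.1 to 15.1) and 15.4-fold (10.8 to 22.6) higher in conventional cells, and Prdm1 4.33-fold and 4.00-fold. Among granzyme inhibitors, Serpinb9, which protects cells from their own granzyme B, stood at 550 CPM in conventional and 208 CPM in ILC1-like female cells and at 480 and 219 CPM in male cells. Serpinb9b was 45.3-fold (21.4 to 115) and 18.4-fold (7.95 to 52.1) higher in conventional cells, whereas Serpina3g, an inhibitor of cathepsins, was 2.16-fold (1.90 to 2.48) and 2.24-fold (1.84 to 2.73) higher in ILC1-like cells. Tnfsf10, the death ligand TRAIL, was 9.87-fold (6.00 to 17.5) and 10.7-fold (5.69 to 22.6) higher in ILC1-like cells, and was among the markers listed for ILC1s. Cd226, an activating receptor, was 3.15-fold and 3.46-fold higher in them. Ifng, the cytokine interferon gamma, was 2.20-fold (1.74 to 2.77) and 1.52-fold (1.15 to 1.99) higher in conventional cells. The cytokine receptor genes Il18r1 (2.81-fold, 2.37 to 3.34, and 2.61-fold, 2.06 to 3.32) and Il12rb2 (2.01-fold, 1.52 to 2.64, and 1.55-fold, 1.10 to 2.17) were also higher there.

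Of 9 genes for granule content and granzyme processing, 8 passed neither way and 1 had too few UMIs, although Gnptab was 2.70-fold (1.84 to 3.96) higher in conventional cells of the female library. Srgn, the proteoglycan core on which granzymes are stored, was 1.47-fold and 1.53-fold higher in ILC1-like cells, and Ctsc, which activates granzyme precursors, stood at 143 and 108 CPM in the female and 117 and 98.9 CPM in the male library. Of 10 release genes 8 passed neither way, and Sytl3, a synaptotagmin-like protein, was 2.33-fold and 2.14-fold higher in conventional cells. The tenth, Stx11, held at most 41 UMIs in a subset and was 2.60-fold (1.63 to 4.17) and 2.56-fold (1.45 to 4.60) higher in conventional cells. Tbx21, which encodes T-bet, was 1.77-fold (1.45 to 2.16) and 1.49-fold (1.14 to 1.95) higher in conventional cells. Of 5 other granzyme genes, Gzmd, Gzme, Gzmg and Gzmn gave 0 UMIs in either library and Gzmf 5 UMIs in 3 female ILC1-like cells, of which 2 also held Gzmc.

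The genes whose pattern was most like each member were found by the Pearson correlation of log2(CPM + 10) over 24 points, 12 classes in each of the 2 libraries, with the members themselves left out. For Gzma these were Klre1, Klra7, Klrb1f, Klrb1c and Klra8 (r from 0.937 to 0.964), all NK receptors. For Prf1 they were Klra8, Klra4, Eomes, Ncr1 and Klre1 (0.937 to 0.966) and for Gzmb Klrb1f, Klrc2, Klre1, Klra6 and Klrb1c (0.959 to 0.976). For Nkg7 they were Klrc2, Klrb1c, Il2rb, Ccl5 and Tbx21 (0.957 to 0.968). Gzmc stood apart with Hbb-bt, Tnni1, Cd200r2, Lag3 and Cdh1 (0.941 to 0.984), and its r with the other members lay between 0.208 and 0.655. Almost all Gzmc UMIs lay in ILC1-like NK cells, so that its r rests mostly on the 2 points of that class. A high r therefore does not show that a gene is found in the same cells as Gzmc. The points share libraries and differ in cell number and depth, and for Gzmk (Fgf13, Dapl1, Traj18, Cd8a and Nsg2) and Gzmm (Sh2d1a, Gm2682, Ms4a4b, Ifitm10 and Crtam) they rest on few UMIs.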

How the data were processed

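CD45+ cells from adrenal glands were measured with 10x Genomics 3′ chemistry in 1 female and 1 male library. The deposited files hold raw UMI counts per gene and barcode, which the authors made with Cell Ranger 4.0.0 on mm10; nothing in them was normalized. Barcodes with at least 200 genes and at most 15% mitochondrial UMIs were kept, and the barcodes with the highest Scrublet scores (0.8% per 1000 barcodes) were taken as doublets and removed. This marked 126 female and 58 male barcodes, of which 123 and 53 had passed the other filters, where the caller's own threshold marked 1 and 8. Cells were clustered with Seurat 5.3.0 (sctransform 0.4.2, R 4.3.3, 2000 features, 20 components, resolution 1), with the 7 genes, 5 other granzyme genes and 6 sex-linked genes held out of the features. Classes were named from marker lists, and a cluster whose leading genes or depth went against a name stayed unnamed. The mitochondrial ceiling named in the study's methods, 1.2%, leaves 323 female and 354 male cells of these matrices, far fewer than the study kept, so that it does not return the study's filter. It was run as an alternative. The members, marker lists and gates were chosen with earlier results of these data known. The list behind the naive-type T cell gate is not reported here in full.

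Gene positions come from the GENCODE annotation of mm10 and promoters from RefSeq. Counts were summed per class and library (Python 3.11.15, scipy 1.17.1). CPM has an exact Poisson interval, ratios an exact conditional binomial interval and shares an exact Clopper-Pearson interval, all at 95%. UMIs of a cell are not independent, so that intervals are narrower than the variation between cells or mice. Shares were taken after a draw of 1000 UMIs per cell, leaving out shallower cells. For 0 UMIs or cells a limit of 3 counts of the total was used, which is not the end of an exact interval. Poisson counts were simulated for ILC1-like against conventional NK cells of the female library (3439 genes), and 95.8% of intervals held the true ratio. The interval is built for such counts, so that this checks the calculation only. It cannot show how the intervals hold for UMIs concentrated in few cells. With 1 library per sex there is no test across animals. All 7 members are named, the genes most like each are the 5 of highest correlation among other genes with at least 100 UMIs, and pathway genes are named where past 1.5-fold with intervals excluding 1 in both libraries or where their role is described. Alternatives were other mitochondrial ceilings, draws, resolutions, doublet and clustering choices, totals and cell-by-cell definitions.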

Additional observations from a re-analysis of the deposited data

Results flagged for a closer look

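Barcodes marked as doublets were left out of every comparison, and several members gave a signal in them above the level of B and myeloid cells. In the 123 marked barcodes of the female library that passed the other filters, with a median of 6934 UMIs, Gzma stood at 2089 CPM, Nkg7 at 1210 CPM, Gzmb at 351 CPM, Prf1 at 189 CPM, Gzmc at 62.7 CPM and Gzmm at 4.98 CPM. In the 53 marked barcodes of the male library, with a median of 4373 UMIs, Gzma stood at 980 CPM, Nkg7 at 546 CPM, Gzmb at 406 CPM, Prf1 at 98.0 CPM and Gzmc at 24.5 CPM.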

How the results depend on the processing

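No paired analysis was possible because there was 1 library per sex, and no library could be left out. The directions of Gzma, Prf1, Nkg7 and Gzmc between the NK subsets held under every alternative that gave a ratio, and ratios against 0 UMIs were not computed. The number of members higher in ILC1-like cells (1 female, 2 male) became 0 in each library at a mitochondrial ceiling of 1.2%, which left 4 and 2 ILC1-like cells. In the female library it became 2 with the cell-by-cell split and with totals without members, ribosomal and mitochondrial genes, and in the male library 1 with the mean of cells' CPM and without cells with CD3 or Trac UMIs. The number lower (4 female, 3 male) ranged from 3 to 5 and from 3 to 4. The number apart between libraries in conventional NK cells (0) became 1 at 1.2%, and in ILC1-like cells (1) 0 at 1.2% and 2 without CD3 or Trac cells. In T cells (2) it became 0 at 1.2% and 1 at 5%, with doublets kept, with the other totals, with all T cluster cells and without the 5 highest cells. Between subsets Gzmb fell from about 1 to below 1 in the female library at 1.2% (0.271), with the mean of cells' CPM (0.891), without CD3 or Trac cells (0.790) and without the 5 highest cells (0.911), and rose to 1.43 (1.33 to 1.54) with the cell-by-cell split and 1.12 (1.05 to 1.19) with the other totals. It reversed in the male library at 1.2% (0.0523) and without CD3 or Trac cells (0.784). Between the libraries, at 1.2%, Gzma (0.229) and Prf1 (1.67) in ILC1-like cells and Nkg7 (1.40) in T cells reversed, and Gzmc in ILC1-like cells went from equal to 3.57 without CD3 or Trac cells. The cause was not tested. Of 198 ratios between the libraries under another setting, 4 reversed, 11 became stronger and 14 weaker. The highest female to male ratio under any setting was 6.03 for Gzmb and 2.15 for Nkg7 in ILC1-like cells. It was 1.99 for Prf1 in conventional cells and 6.09 for Gzma in T cells. Of 126 shares of cells with a transcript under another draw (500 or 2000 UMIs) or none, 79 moved beyond their interval. Those of Gzma and Prf1 were higher in conventional than in ILC1-like cells under each, and those of Nkg7 too except in the male library without a draw (98.7% and 99.5%). With doublets kept, the female B and myeloid levels rose to 168 CPM for Gzma, 85.7 for Nkg7, 16.0 for Gzmb and 9.99 for Prf1, and the male levels stayed within their intervals. The settings without CD3 or Trac cells and without the 5 highest cells were chosen after seeing the data. Gzmk and Gzmm gave 110 and 70 UMIs, which limits what can be read from them, and the part of depth in this was not tested.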
